A study of Mus musculus with 48 samples.

Results

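The 10 genes described here encode heat shock proteins and other chaperones, and were taken as all entries of the deposited gene-wise read counts that carry the name Hspa1a, Hspa1b, Hspa5, Hspa8, Hsp90aa1, Hsp90b1, Hsph1, Dnajb1, Hspb1 or Pdia4. They are 10 of the 48440 genes in the table, and all 10 passed the filter on low counts, which kept 31208 genes. The libraries were made from the hippocampus of 48 female mice aged 3 months, given as C57BL/6 in the labels and of the J substrain in the methods, with left and right hippocampus of each animal pooled. Some of their mothers had been restrained during pregnancy, 3 times each day between embryonic days 13 and 17 (prenatal stress, PS), and the offspring carried 2 labelled genotypes of the serotonin transporter (5-HTT, gene Slc6a4). After PS, offspring were split by their performance in a test of sociability into socially affected (SA, labelled PS-susceptible) and socially unaffected (SU, labelled PS-resilient) animals, while controls (C) came from unstressed mothers. This gave 5-Htt+/+ C (n = 8), 5-Htt+/+ SA (n = 8), 5-Htt+/+ SU (n = 8), 5-Htt+/- C (n = 7), 5-Htt+/- SA (n = 8) and 5-Htt+/- SU (n = 9). These numbers are those of the labels, whereas the methods give 8 sequenced animals for each group. The 5-Htt+/- animals were bred to carry 1 inactivated Slc6a4 allele, by crossing 5-Htt+/- males with wild-type females, and the genotypes are taken from the labels. By the methods, the animals themselves, controls included, went through behavioural tests, a swim test among them, before tissue was taken. Blood was later drawn before and after an acute restraint of the animals. The time from that restraint to the collection of tissue was not given, so the controls are not animals without stress. The labels do not give the litter, and littermates within a group would make the p-values below too small.

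Chaperones bind unfolded proteins and help them to fold, to be transported or to be degraded. In the cytosol, the heat shock response is switched on by heat shock factor 1, which binds heat shock elements in the promoters of genes such as Hspa1a and Hspa1b, whereas Hspa8 and Hsp90aa1 are also highly expressed in unstressed neurons. In the endoplasmic reticulum (ER), the unfolded protein response raises Hspa5, Hsp90b1 and Pdia4 through ER stress elements. Hsp90 also holds the glucocorticoid receptor in the form that can bind its hormone, which ties chaperones to the stress hormone axis.

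The promoter sequences are shown first because the elements through which both responses act can be looked for in them. For 8 of the 10 genes, RefSeq's annotation of GRCm38.p6 gave the 250 bases before the transcription start, each printed 5′ to 3′ on the strand of the gene. Capitals mark every match, on either strand, to the ER stress element (CCAAT, then 9 bases of any kind, then CCACG) in the ER genes, to a pair of heat shock units facing each other, GAANNTTC, in Hspa1a, Hspa1b and Hspb1, and to a pair facing apart, TTCNNGAA, in Hsph1.
Hspa5 (chr2:34771840-34772089, plus strand): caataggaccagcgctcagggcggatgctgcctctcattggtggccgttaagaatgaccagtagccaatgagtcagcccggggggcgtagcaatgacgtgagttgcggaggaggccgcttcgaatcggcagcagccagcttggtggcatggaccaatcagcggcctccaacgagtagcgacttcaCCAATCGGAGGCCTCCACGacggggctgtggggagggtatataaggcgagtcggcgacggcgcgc
Hsp90b1 (chr10:86705445-86705694, minus strand): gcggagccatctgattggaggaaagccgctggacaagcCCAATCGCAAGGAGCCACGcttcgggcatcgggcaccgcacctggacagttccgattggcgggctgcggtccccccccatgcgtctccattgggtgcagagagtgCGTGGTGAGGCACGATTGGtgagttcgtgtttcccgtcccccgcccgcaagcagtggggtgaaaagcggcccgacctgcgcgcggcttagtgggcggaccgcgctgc
Hspa1a (chr17:34972157-34972406, minus strand): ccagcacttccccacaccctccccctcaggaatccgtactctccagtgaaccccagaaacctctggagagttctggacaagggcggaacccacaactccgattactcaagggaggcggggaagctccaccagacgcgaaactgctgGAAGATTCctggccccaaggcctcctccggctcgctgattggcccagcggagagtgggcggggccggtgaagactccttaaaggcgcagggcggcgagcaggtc
Hspa1b (chr17:34959239-34959488, minus strand): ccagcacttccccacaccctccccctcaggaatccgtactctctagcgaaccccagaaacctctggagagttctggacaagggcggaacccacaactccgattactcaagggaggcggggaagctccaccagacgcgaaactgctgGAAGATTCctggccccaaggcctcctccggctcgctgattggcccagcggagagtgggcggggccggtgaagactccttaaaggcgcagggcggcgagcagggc
Hspb1 (chr5:135887669-135887918, plus strand): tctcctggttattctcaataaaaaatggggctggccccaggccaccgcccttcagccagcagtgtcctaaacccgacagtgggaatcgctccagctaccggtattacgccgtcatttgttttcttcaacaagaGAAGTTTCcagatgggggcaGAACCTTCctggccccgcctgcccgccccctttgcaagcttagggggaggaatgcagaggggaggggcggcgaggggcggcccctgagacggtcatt
Hsph1 (chr5:149636316-149636565, minus strand): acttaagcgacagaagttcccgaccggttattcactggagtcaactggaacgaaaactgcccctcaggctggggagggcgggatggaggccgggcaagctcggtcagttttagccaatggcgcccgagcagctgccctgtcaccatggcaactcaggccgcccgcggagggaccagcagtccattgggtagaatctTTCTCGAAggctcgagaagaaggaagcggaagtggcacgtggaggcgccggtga

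The ER stress element occurred once in Hspa5, beginning 65 bases before the start, and at 2 places in Hsp90b1, beginning 212 and 107 bases before it. It was present in 0.113% of all 32851 promoters of the same length. The unit pair GAANNTTC began 104 bases before the start in both Hspa1a and Hspa1b and 117 and 97 bases before it in Hspb1, and was present in 6.69% of all promoters. The pair TTCNNGAA, which was searched for only after the sequences had been read, began 54 bases before the start of Hsph1 used above and was present in 7.17% of all promoters. RefSeq gave another start for Hsph1, from which the same pair began 33 bases upstream, and another for Dnajb1. The 3-unit element, GAANNTTC followed by NNGAA, was in no window of the 8 genes and in 0.466% of all promoters, and Pdia4 and Dnajb1 held none of these 4 motifs in their windows. The windows of Hspa1a and Hspa1b differed at 3 of 250 bases. A match is a stretch of letters and not a site shown to be bound, and the absence of a match holds for these windows only.

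The targeted gene was examined first as a check of the genotype labels. In CPM, the count of a gene scaled to the effective size of its library, Slc6a4 lay between 12.8 and 17.0 (median 14.8) in the 24 libraries labelled 5-Htt+/- and between 0 and 0.261 (median 0.123) in the 24 libraries labelled 5-Htt+/+. The libraries labelled with 1 inactivated allele thus held more Slc6a4 reads, without overlap, and the genotypes given below are those of the labels. Total counts per library ranged from 16488405 to 38213754. Summed over 7 markers of hippocampal neurons, levels lay between 2829 and 4321 CPM. Summed over 10 markers of the choroid plexus epithelium, none of which was at 0 in all libraries, they ranged from 26.2 to 928 CPM, with medians of 48.9 CPM in 5-Htt+/- C and 286 CPM in 5-Htt+/- SU, and over 8 oligodendrocyte markers, also none at 0, the median was 3016 CPM (highest library 4150.3 CPM) in 5-Htt+/- C, 2425 CPM in 5-Htt+/- SU and 2505 to 2594 CPM in the 4 other groups. Fits with the choroid plexus or the oligodendrocyte score as a term are given below. In such bulk tissue, fewer cells of a type and less RNA per cell cannot be told apart.

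Reads of 6 of the 10 genes could not be assigned to these genes alone, and this limits which of them are separate measurements. Hspa1a (ENSMUSG00000091971.3, GRCm38 chr17:34969190-34972156, minus strand) and Hspa1b (ENSMUSG00000090877.3, chr17:34956436-34959238, minus strand) encode the stress-inducible Hsp70 of the cytosol, and their longest reading frames were 99.5% identical. Hspa1b had between 0.972 and 1.10 times the reads of Hspa1a in every library, and the 2 counts differed by less than the sampling noise of separate reads (chi-square of 0.282 per library). They are therefore 1 measurement given under 2 names. Of the possible 50-base reads of Hspa1a, 66.3% occurred in another gene.

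Pseudogenes followed their parent genes closely. Hspa8 (ENSMUSG00000015656.16, chr9:40800984-40805200, plus strand), the constitutive Hsc70, shared 74.8% of its 50-base reads, and the pseudogene Gm15459 had 0.776 to 0.812 times its count. Hsp90aa1 (ENSMUSG00000021270.13, chr12:110690605-110702728, minus strand), the inducible cytosolic Hsp90, shared 58.5%, and Gm12346 had 0.677 to 0.717 times its count. Hspb1 (ENSMUSG00000004951.10, chr5:135887919-135889563, plus strand), the small heat shock protein Hsp25, shared 51.6%, and Hsp25-ps1 had 0.517 to 0.900 times its count. Changes of these genes are therefore those of a gene together with its copies.

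For Hsp90b1 (ENSMUSG00000020048.13, chr10:86690209-86705509, minus strand), the ER Hsp90 called Grp94, the overlapping gene 1810014B01Rik on the other strand had 0.484 to 0.613 times its count, and the reads of the pair could not be separated where the genes overlap. Hspa5 (ENSMUSG00000026864.13, chr2:34771970-34777547, plus strand), the ER Hsp70 called BiP, shared none of its 50-base reads. Hsph1 (ENSMUSG00000029657.15, chr5:149614287-149636376, minus strand), the Hsp110 that exchanges the nucleotide of Hsp70, shared none, nor did Pdia4 (ENSMUSG00000025823.9, chr6:47796141-47813430, minus strand), an ER disulphide isomerase. Dnajb1 (ENSMUSG00000005483.9, chr8:83608175-83611902, plus strand), the Hsp40 that hands unfolded proteins to Hsp70, shared 0.441%.

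Levels of the 10 genes spanned about 2 orders of magnitude. Per kilobase of exon, the mean over 48 libraries was highest for Hspa8 (411 CPM per kb) and Hsp90aa1 (238 CPM per kb), the abundant cytosolic chaperones. Hsp90b1 (72.1 CPM per kb), Hspa5 (68.1 CPM per kb) and Hsph1 (40.4 CPM per kb) followed, and Hsp90b1 and Hspa5 were closer to each other than the spread between libraries. Pdia4 (20.6 CPM per kb), Dnajb1 (11.7 CPM per kb), Hspa1b (9.96 CPM per kb), Hspa1a (9.13 CPM per kb) and Hspb1 (3.62 CPM per kb) were lower, and the values of genes with copies carry reads of both. The length used was that of all annotated exons together, for Hsph1 7266 bases against 3802 in its longest coding transcript. For Hspa5 these lengths were 4229 and 3672 bases, so the gap between Hspa5 and Hsph1 depends on the length used. Within groups, the SD of the log2 level was lowest for Hsph1 (0.14) and Hspa8 (0.15) and highest for Hspb1 (0.29), Hspa1b (0.28) and Hspa1a (0.28). Hspb1 rested on 46 to 148 reads per library, against 25316 to 77463 reads for Hspa8.

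**Figure D1:**
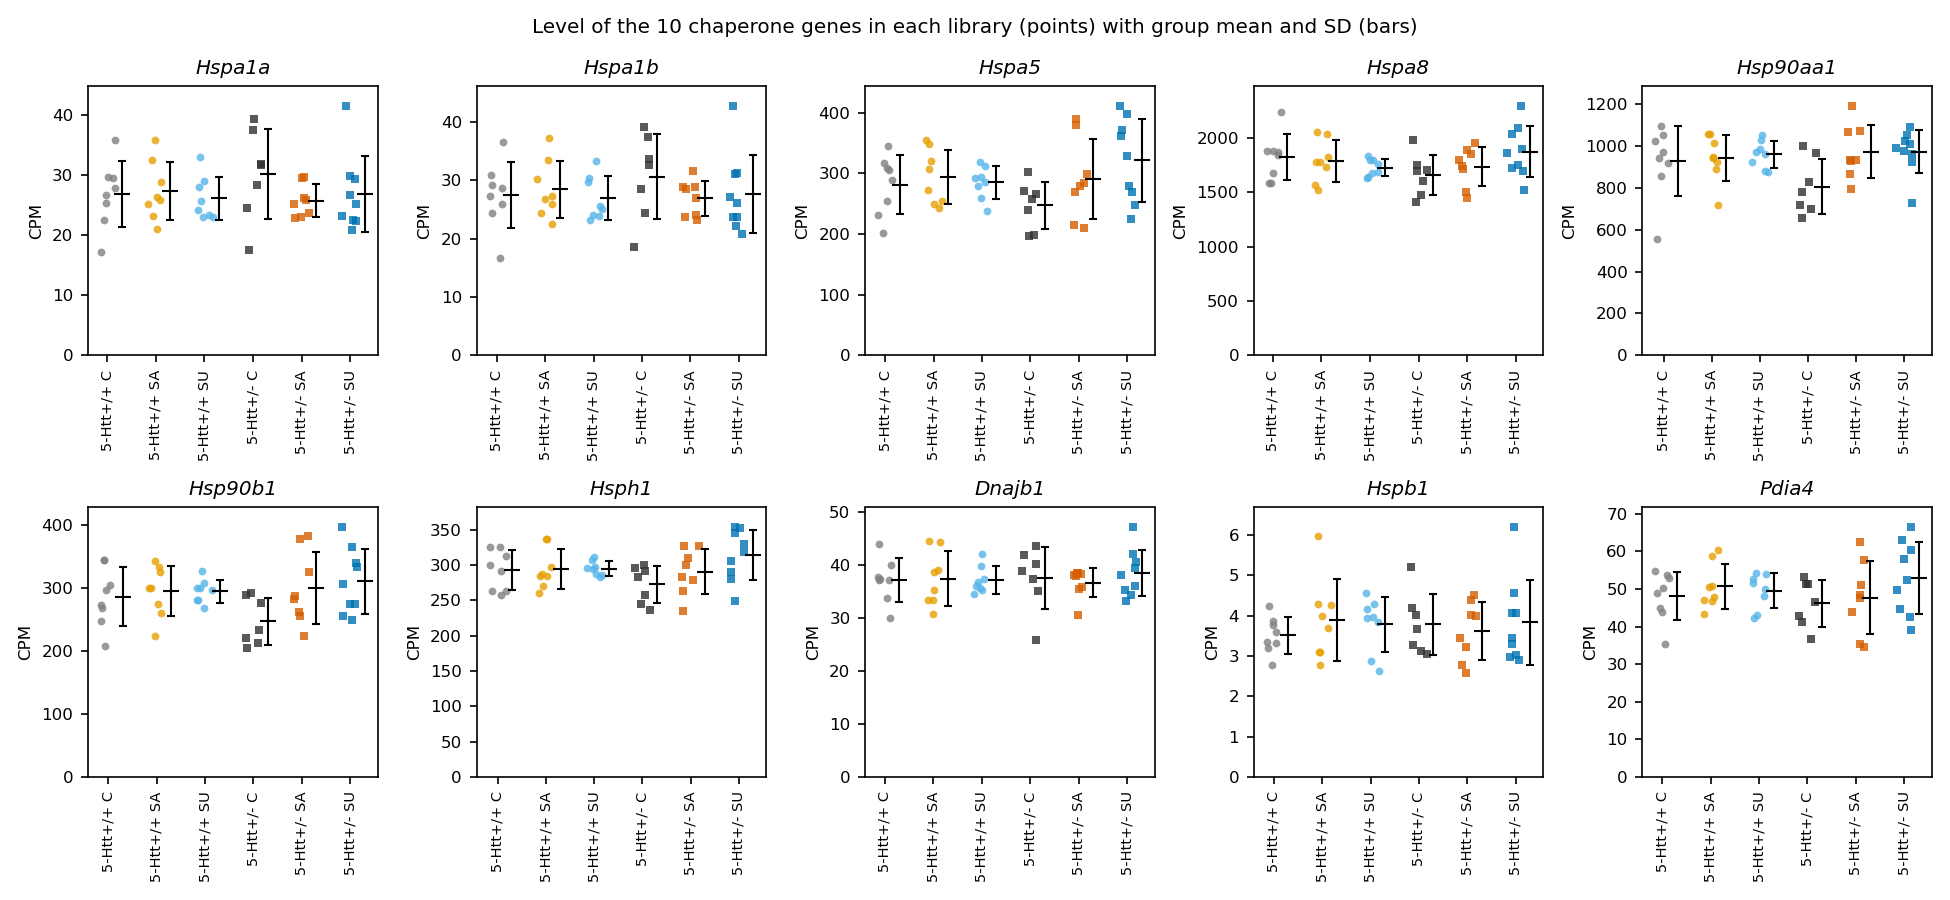
Levels of the 10 chaperone genes in CPM (counts scaled to library size, vertical axes from 0) in each of the 48 libraries (points), by group, with the group mean and SD (black bars). The means of Hspa5, Hsp90b1, Hsp90aa1, Hspa8, Hsph1 and Pdia4 were lowest in 5-Htt+/- C, and the groups overlapped for every gene.

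Among the ER chaperones, the lowest group mean was that of the 5-Htt+/- controls. Hspa5 had a mean of 281 ± 48.2 CPM (SD, n = 8) in 5-Htt+/+ C, 294 ± 44.8 (n = 8) in SA and 285 ± 26.7 (n = 8) in SU, against 248 ± 38.9 (n = 7) in 5-Htt+/- C, 291 ± 66.1 (n = 8) in SA and 321 ± 68.4 (n = 9) in SU. Its lowest, median and highest values were 202, 297 and 345 CPM in 5-Htt+/+ C, 243, 290.2 and 354 in SA, and 239, 289 and 319 in SU. In the 5-Htt+/- groups they were 197, 258 and 303 CPM in C, 209.9, 281 and 389.5 in SA, and 225, 329 and 411 in SU. All 6 groups overlapped, and 5-Htt+/- SU reached highest.

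Hsp90b1 showed the same order at the low end. Its means were 286 ± 47.2 CPM (SD, n = 8) in 5-Htt+/+ C, 295 ± 39.999 (n = 8) in SA and 296 ± 18.3 (n = 8) in SU, and 248 ± 37.6 (n = 7) in 5-Htt+/- C, 300.2 ± 57.7 (n = 8) in SA and 311 ± 51.3 (n = 9) in SU. The lowest, median and highest libraries had 206, 234 and 293 CPM in 5-Htt+/- C, 224, 286 and 383 in 5-Htt+/- SA, and 250.2, 307 and 397 in 5-Htt+/- SU. In the 5-Htt+/+ groups these were 208, 285 and 346 CPM in C, 225, 301 and 343 in SA, and 269, 299 and 327 in SU. The medians of the 3 groups of 5-Htt+/+ animals lay close together, the SU group covered the narrowest range, and the median of 5-Htt+/- C lay below the lowest library of 5-Htt+/+ SU. Pdia4 had group means of 48.1, 50.7 and 49.5 CPM in 5-Htt+/+ C, SA and SU and of 46.2, 47.7 and 52.9 CPM in 5-Htt+/- C, SA and SU.

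In the cytosol, Hsp90aa1 also had its lowest mean in the 5-Htt+/- controls. Its means were 928 ± 169 CPM (SD, n = 8), 944 ± 109.9 (n = 8) and 961 ± 64.9 (n = 8) in 5-Htt+/+ C, SA and SU, and 806 ± 133 (n = 7), 974 ± 128 (n = 8) and 974 ± 105 (n = 9) in 5-Htt+/- C, SA and SU. The lowest, median and highest values were 655, 779 and 999 CPM in 5-Htt+/- C, 795, 934 and 1192 in 5-Htt+/- SA, and 728, 991 and 1090.1 in 5-Htt+/- SU. They were 555, 959 and 1096 CPM in 5-Htt+/+ C, 719, 944 and 1060.0 in SA, and 876, 966 and 1055 in SU. The lowest library of all was a 5-Htt+/+ control, and the median of 5-Htt+/- C lay below the medians of the 5 other groups.

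Hspa8 had the lowest, median and highest values of 1579, 1857 and 2234 CPM in 5-Htt+/+ C, 1522, 1777 and 2049 in SA, and 1626, 1718 and 1829 in SU. In 5-Htt+/- animals these were 1411, 1690.4 and 1974 CPM in C, 1444, 1767 and 1948 in SA, and 1524, 1856 and 2292 in SU. For Hsph1 they were 237, 283 and 300.0 CPM in 5-Htt+/- C, 235, 291 and 327 in 5-Htt+/- SA, and 249.3, 318 and 353 in 5-Htt+/- SU. The 5-Htt+/- SU group had the highest mean of both genes (1872 CPM for Hspa8, 313 CPM for Hsph1) and 5-Htt+/- C the lowest (1657 and 273 CPM). In 5-Htt+/+ C, SA and SU, Hsph1 had means of 292, 294 and 295 CPM.

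The stress-inducible Hsp70 pair, by contrast, had its highest mean in 5-Htt+/- C. Hspa1a had 17.6, 31.7 and 39.3 CPM as its lowest, median and highest value in 5-Htt+/- C, 22.8, 25.5 and 29.7 in 5-Htt+/- SA, and 20.8, 25.1 and 41.5 in 5-Htt+/- SU. In 5-Htt+/+ animals the values were 17.1, 27.3 and 35.8 CPM in C, 20.99, 26.1 and 35.7 in SA, and 22.9, 24.9 and 33.0 in SU. The 5-Htt+/- controls held both one of the lowest and one of the highest levels, and their SD of 7.47 CPM (n = 7) was the largest of the 6 groups. Hspa1b, which shares its reads, had group means from 26.9 CPM in 5-Htt+/- SA to 30.6 CPM in 5-Htt+/- C.

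Dnajb1 and Hspb1 differed least between groups. The means of Dnajb1 were 37.1, 37.4 and 37.1 CPM in 5-Htt+/+ C, SA and SU and 37.5, 36.6 and 38.4 CPM in 5-Htt+/- C, SA and SU. Those of Hspb1 were 3.51, 3.89 and 3.78 CPM in 5-Htt+/+ C, SA and SU and 3.78, 3.62 and 3.83 CPM in 5-Htt+/- C, SA and SU. For both genes the largest and the smallest group mean were closer than the SD within the groups.

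No gene of the 10 passed an adjusted p of 0.05 in any of the 12 comparisons tested with edgeR's quasi-likelihood test over all 31208 genes. The smallest adjusted p was 0.158 (Hsp90b1, 5-Htt+/- SU versus C), and DESeq2 and edgeR's likelihood ratio test also called 0 of the 10 in every comparison. Of all genes, 0.0128% were called in 5-Htt+/+ SA versus C, 0.0192% in 5-Htt+/+ SU versus C, 0.0288% in 5-Htt+/- SA versus C and 0.016% in 5-Htt+/- SU versus C. The share was 0% for SA versus SU in 5-Htt+/+ animals, 0% for SA versus SU in 5-Htt+/- animals, 0% for the three-way interaction and 0% for the interaction of PS with genotype. It was 0.016% between the controls of both genotypes, 0.0192% between the PS groups of both genotypes, 0.0385% for PS versus C over both genotypes and 0.0609% for any difference among the 6 groups. The values below are therefore nominal, that is, they rest on p before adjustment, and the share of all genes that reached the same nominal level is given for each comparison. The 4 comparisons with controls share the controls of their genotype.

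The first question was whether PS altered chaperone expression in 5-Htt+/+ offspring. Of the 10 genes, 0 had a nominal p under 0.05 in SA versus C, where 3.07% of all genes did, and 0 in SU versus C, where 3.37% did. The largest change in both was that of the small heat shock protein Hspb1, with a log2 fold change of 0.16 ± 0.15 (SE, edgeR, adjusted p = 1) in SA and 0.09 ± 0.15 (edgeR, adjusted p = 0.998) in SU. With 1 library left out, these 2 values lay between 0.04 (without 5-Htt+/+ SA replicate 8) and 0.21, and between 0.04 (without 5-Htt+/+ C replicate 3) and 0.16 (without 5-Htt+/+ SU replicate 2). The changes of the 10 genes lay between -0.03 and 0.16 in SA and between -0.08 and 0.09 in SU, with medians of 0.04 and 0.02 beside medians over all genes of -0.0017 and -0.0061.

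In 5-Htt+/- SA offspring, both Hsp90 genes had nominally higher levels than in 5-Htt+/- C. The log2 fold change was 0.27 ± 0.10 for Hsp90aa1 (SE, edgeR, adjusted p = 0.331) and 0.28 ± 0.11 for Hsp90b1 (edgeR, adjusted p = 0.345). These 2 of 10 genes compare with 12.1% of all genes at nominal p under 0.05, and with 5.17% when only higher levels are counted. The 10 genes ranged from -0.23 (Hspa1a) to 0.28, with a median of 0.05 against -0.0084 over all genes.

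In 5-Htt+/- SU offspring, 5 of the 10 genes had a nominal p under 0.05 against 5-Htt+/- C, all with higher levels, beside 15.5% of all genes in either direction and 6.74% with higher levels. The ER chaperones came first, with log2 fold changes of 0.38 ± 0.12 for Hspa5 (SE, edgeR, adjusted p = 0.167) and 0.33 ± 0.11 for Hsp90b1 (edgeR, adjusted p = 0.158). In the cytosol, Hsp90aa1 had 0.27 ± 0.10 (edgeR, adjusted p = 0.195), Hsph1 had 0.20 ± 0.07 (edgeR, adjusted p = 0.182) and Hspa8 had 0.18 ± 0.07 (edgeR, adjusted p = 0.260). The ER isomerase Pdia4 had 0.20 ± 0.11 (edgeR, adjusted p = 0.365). The median of the 10 genes was 0.19, against -0.0028 over all genes.

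The inducible Hsp70 pair did not take part in this pattern. Hspa1a had log2 fold changes of -0.23 ± 0.13 in 5-Htt+/- SA (SE, edgeR, adjusted p = 0.467) and -0.17 ± 0.13 in 5-Htt+/- SU (edgeR, adjusted p = 0.531). For Hspa1b these were -0.19 ± 0.14 and -0.15 ± 0.13, and for the summed reads of both genes -0.21 ± 0.13 and -0.16 ± 0.13. None of these had a nominal p under 0.05. Their direction turned in 5-Htt+/- SA and SU without the 6 libraries described below, and in SU also with the mitochondrial share as a term.

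**Figure D2:**
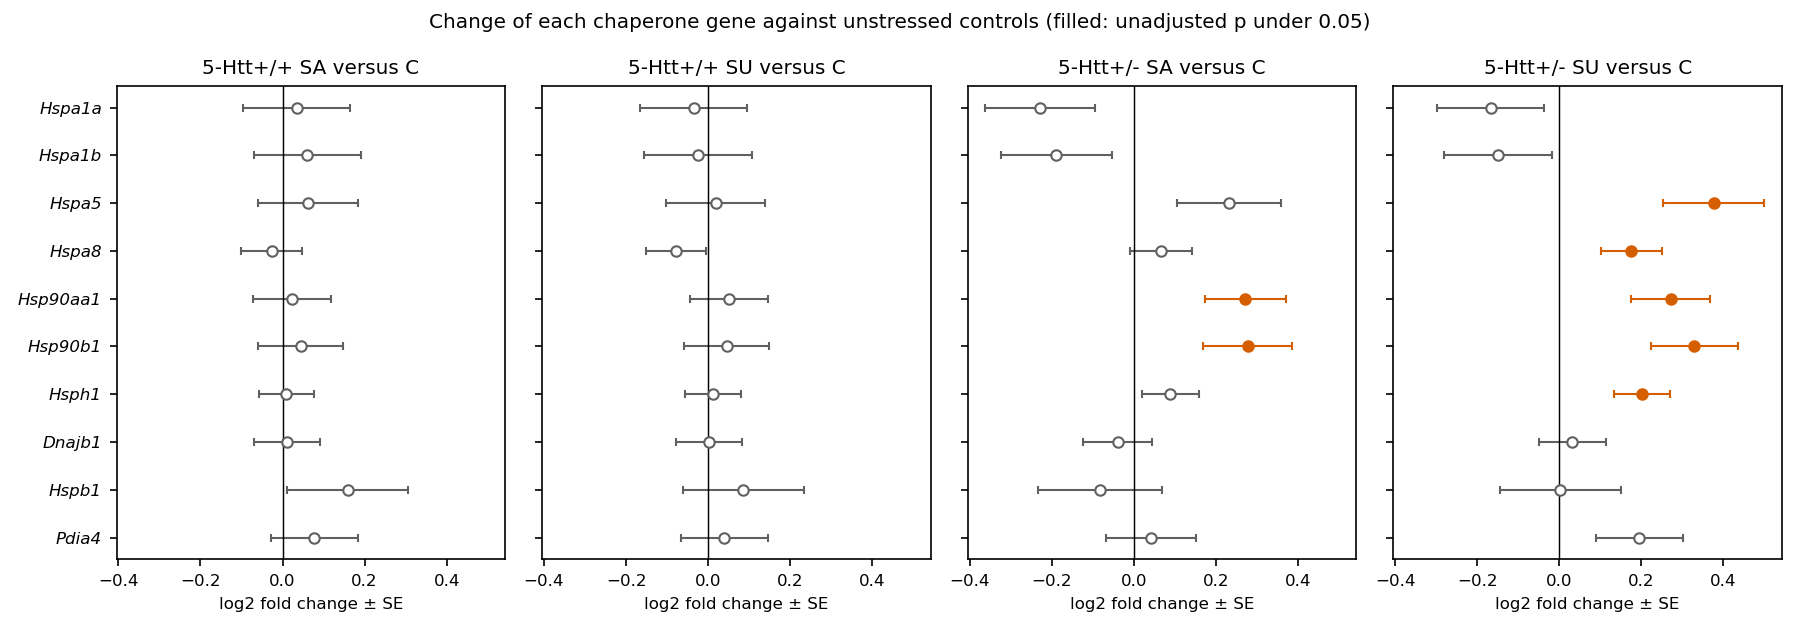
Log2 fold change (horizontal axes) of the 10 chaperone genes in each PS group against the controls of the same labelled genotype, with SE bars. Filled points have an unadjusted p under 0.05 and none passed after adjustment. In 5-Htt+/- SU, 5 genes are filled, from 0.18 for Hspa8 to 0.38 for Hspa5, and in both 5-Htt+/+ panels none is.

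Pooled over SA and SU and both genotypes, PS was nominally associated with higher levels of 3 of the 10 genes, beside 12.9% of all genes in either direction and 5.27% with higher levels. The log2 fold changes were 0.17 ± 0.07 for Hsp90b1 (SE, edgeR, adjusted p = 0.315), 0.15 ± 0.06 for Hsp90aa1 (edgeR, adjusted p = 0.325) and 0.17 ± 0.08 for Hspa5 (edgeR, adjusted p = 0.351). Without the 6 libraries described below they were 0.08, 0.04 and 0.14, and with the mitochondrial share as a term 0.11, 0.08 and 0.14, none with a nominal p under 0.05. Hspa5 also had a nominal p over 0.05 with the GC trend removed, with the choroid plexus or the oligodendrocyte score as a term, and without 5-Htt+/- C replicate 3 or 5 or 5-Htt+/+ C replicate 1 or 3. Whether the effect of PS depended on the genotype was tested as an interaction, which no gene of the 10 passed even nominally, beside 6.01% of all genes. The largest difference was that of Hspa5 (0.26 ± 0.15, edgeR, adjusted p = 0.825), and Hsp90b1 had 0.26 ± 0.13 (edgeR, adjusted p = 0.823) and Hsp90aa1 0.23 ± 0.12 (edgeR, adjusted p = 0.823). A nominal change in 5-Htt+/- offspring and none in 5-Htt+/+ offspring was thus not shown to be a difference between the genotypes.

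Between the controls of both labelled genotypes, Hsp90aa1 was nominally lower in 5-Htt+/- C, with a log2 fold change of -0.20 ± 0.10 (SE, edgeR, adjusted p = 0.585). It was 1 of 10 genes, beside 8.51% of all genes in either direction and 3.69% with lower levels. Among PS animals, 0 of 10 genes differed nominally between the genotypes, beside 3.16% of all genes, and the largest difference was 0.08 ± 0.08 for Hspa5 (edgeR, adjusted p = 1). The directions between genotypes rest on the labels. Slc6a4 reads split the libraries by label without overlap, but with more reads under the label of 1 inactivated allele. The reason for this was not tested.

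Socially affected and unaffected offspring were compared within each genotype. In 5-Htt+/+ animals, 0 of 10 genes had a nominal p under 0.05, beside 3.9% of all genes, and the largest difference was 0.09 ± 0.13 for Hspa1b (SE, edgeR, adjusted p = 0.999). In 5-Htt+/- animals, 0 of 10 did so beside 3.79% of all genes, and the largest was -0.15 ± 0.10 for Pdia4 (edgeR, adjusted p = 1). The three-way interaction of genotype, PS and sociability, which sets the SA to SU difference of 5-Htt+/+ animals against that of 5-Htt+/- animals, gave 0 of 10 beside 3.7% of all genes, with 0.19 ± 0.15 for Pdia4 as the largest (edgeR, adjusted p = 1). For any difference among the 6 groups, 0 of 10 had a nominal p under 0.05 beside 7.08% of all genes, and the smallest p was that of Hsp90b1 (edgeR, adjusted p = 0.718).

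The nominal differences moved with properties of the libraries that are not specific to chaperones. In each library the deviation of genes from their mean level was regressed on the GC content of their transcripts, and this GC slope was highest in 5-Htt+/- C, with a mean of 0.115 ± 0.166 log2 units per 10 percentage points of GC (SD, n = 7). The means of the 5 other groups lay between -0.0521 and 0.00445. The share of mitochondrial counts was lowest in the same group, at 4.60 ± 0.677% (SD, n = 7), with means of 5.04% to 5.32% in the others. Of the 6 libraries farthest from the median on the first principal component of all genes, 3 were 5-Htt+/- controls. Fits without the 6 libraries therefore leave out 3 of the 7 controls of that genotype, and a lost nominal p or call there also reflects the smaller group.

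Across the 48 libraries, Hsp90aa1 followed the GC slope closely, with r = -0.85 and rho = -0.73 (permutation p = 1e-05 for both, the smallest that 100000 resamples can give, adjusted over 30 relations 0.00015 and 0.0001). Without the 2 libraries of most extreme slope, r was -0.80, and after group means were subtracted it was -0.82. Hsp90b1 had r = -0.71 and rho = -0.60 (permutation, adjusted p = 0.00015 for both), r = -0.65 without those 2 libraries and -0.66 within groups. Both genes have AT-rich transcripts, with 43.7% and 43.8% GC. The slope was computed from the levels of these same libraries. By construction, AT-rich genes therefore fall along it and GC-rich genes increase along it on average. The share of all genes that reach such an r was not computed.

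The GC-rich Hspa1a (58.9% GC) went the other way, with r = 0.60 and rho = 0.61 (permutation, adjusted p = 0.00015 and 0.0001), r = 0.56 without the 2 most extreme libraries and 0.58 within groups. Dnajb1 (52.7% GC) had r = 0.54 and rho = 0.54 (permutation, adjusted p = 0.000333 and 0.000514), r = 0.51 without those 2 libraries and 0.61 within groups. For Hspa5 (45.6% GC) r was -0.27 and rho -0.23 (permutation, adjusted p = 0.14 and 0.323), and for Hsph1 (47.4% GC) r was -0.09 and rho -0.09 (permutation, adjusted p = 0.796 and 0.843). Hspb1, the richest in GC (61.7%), had r = 0.04 and rho = 0.04 (permutation, adjusted p = 0.99 and 0.975), so that GC content alone did not order the genes.

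**Figure D3:**
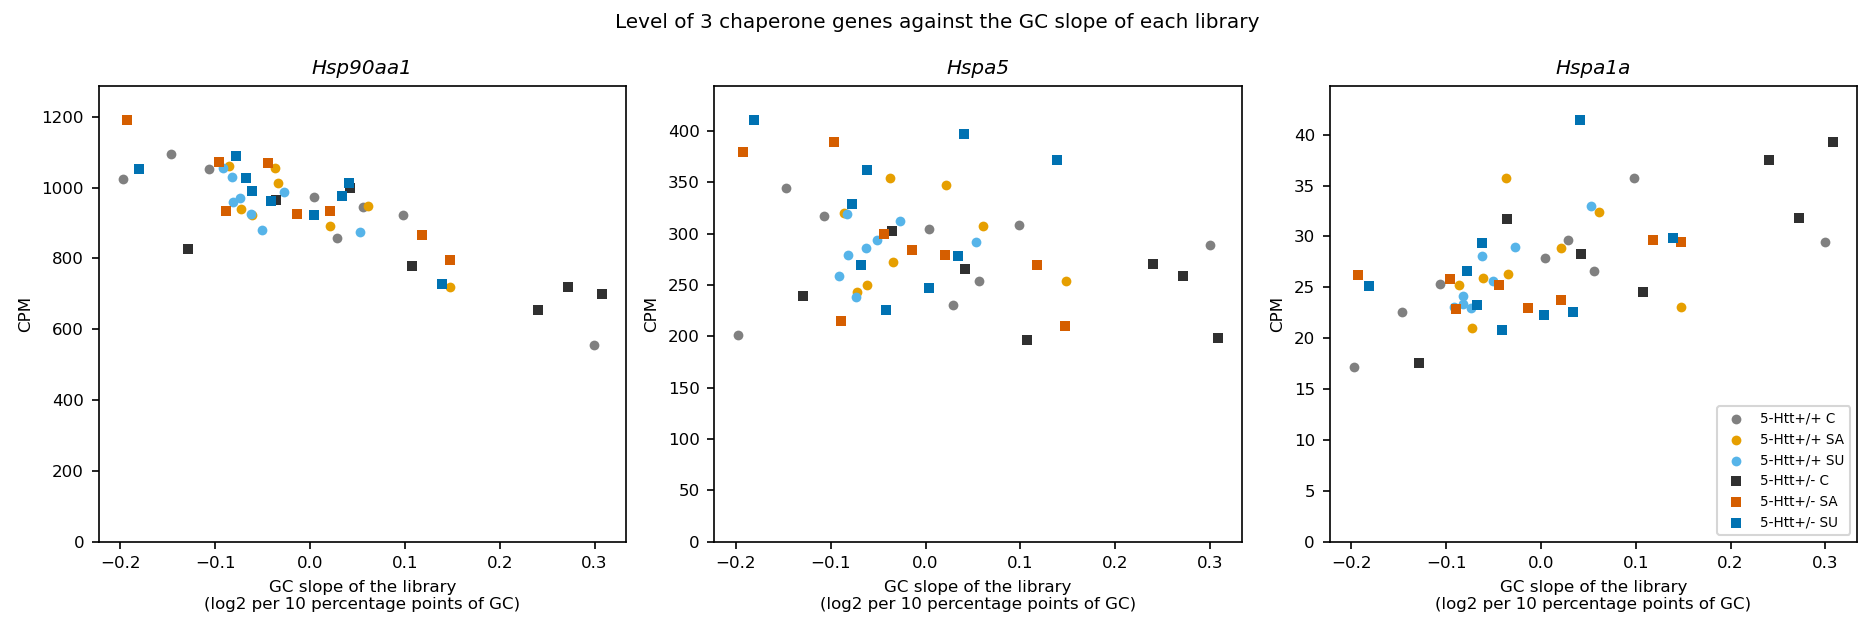
Level of Hsp90aa1, Hspa5 and Hspa1a in each of the 48 libraries (CPM, vertical axes from 0) against the GC slope of the library (log2 units per 10 percentage points of GC), coloured by group. Hsp90aa1 falls along the slope (r = -0.85) and Hspa1a increases (r = 0.60), and 3 of the 5-Htt+/- controls lie at the right.

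The mitochondrial share, which differed between the same libraries, showed the mirror image. It correlated with Hsp90aa1 at r = 0.61 and rho = 0.56 (permutation, adjusted p = 0.00015 and 0.00042) and with Hspa1a at r = -0.61 and rho = -0.62 (permutation, adjusted p = 0.00015 and 0.0001). Without the 2 libraries of most extreme share, r was 0.57 and -0.50, and within groups 0.53 and -0.61. With Hspa5 it had r = 0.29 and rho = 0.17 (permutation, adjusted p = 0.114 and 0.459). The choroid plexus score passed adjustment with none of the 10 genes, the largest being r = 0.29 with Hsp90aa1 (rho = 0.21, permutation, adjusted p = 0.114 and 0.336).

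The fold changes of 5-Htt+/- SU versus C were therefore fitted again with these measures taken into account. Removing the GC trend of each library, an alternative chosen after the data were seen, gave 0.32 for Hspa5, 0.22 for Hsp90b1, 0.19 for Hsp90aa1, 0.17 for Hsph1 and 0.12 for Hspa8, and of these only Hspa8 had a nominal p over 0.05. With the mitochondrial share as a term, Hsp90aa1 had 0.10 and Hsp90b1 0.19, both no longer at a nominal p under 0.05. Hspa5 had 0.31, Hspa8 0.21 and Hsph1 0.19 in that fit, all with a nominal p under 0.05. Without the 6 libraries farthest on the first component, Hspa5 had 0.33, Hsp90b1 0.23, Hspa8 0.21, Hsph1 0.20 and Hsp90aa1 0.17, all with a nominal p under 0.05. With the choroid plexus score as a term, the 5 changes lay between 0.19 (Hspa8) and 0.34 (Hspa5), all with a nominal p under 0.05. With the oligodendrocyte score as a term, also added after the data were seen, they were 0.29 for Hspa5, 0.25 for Hsp90b1, 0.22 for Hsp90aa1, 0.16 for Hsph1 and 0.15 for Hspa8, the last with a nominal p over 0.05. Hspa5 and Hsph1 thus had a nominal p under 0.05 in each of these 5 fits, and the Hsp90 genes did not with the mitochondrial share. The measures themselves differed between the groups compared. The mean mitochondrial share was 4.60% in 5-Htt+/- C and 5.32% in 5-Htt+/- SU. Effects of the group and of such a measure can therefore not be told apart in these fits.

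In 5-Htt+/- SA, the Hsp90 genes were refitted in the same way. Without the 6 libraries, the log2 fold change of Hsp90aa1 was 0.08 and that of Hsp90b1 0.11. With the mitochondrial share as a term they were 0.16 and 0.18, and none of these 4 values had a nominal p under 0.05. With the GC trend removed they were 0.20 and 0.17, both with a nominal p under 0.05. With the oligodendrocyte score they were 0.24 and 0.22, the second with a nominal p over 0.05. The lower Hsp90aa1 of 5-Htt+/- C against 5-Htt+/+ C was -0.08 with the mitochondrial share as a term and -0.14 without the 6 libraries. Its nominal p was over 0.05 in 8 of 15 other settings, TMM scaling among them, and without any 1 of 10 libraries of the control groups, and the difference lay between -0.28 and -0.16 with 1 library left out.

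**Figure D4:**
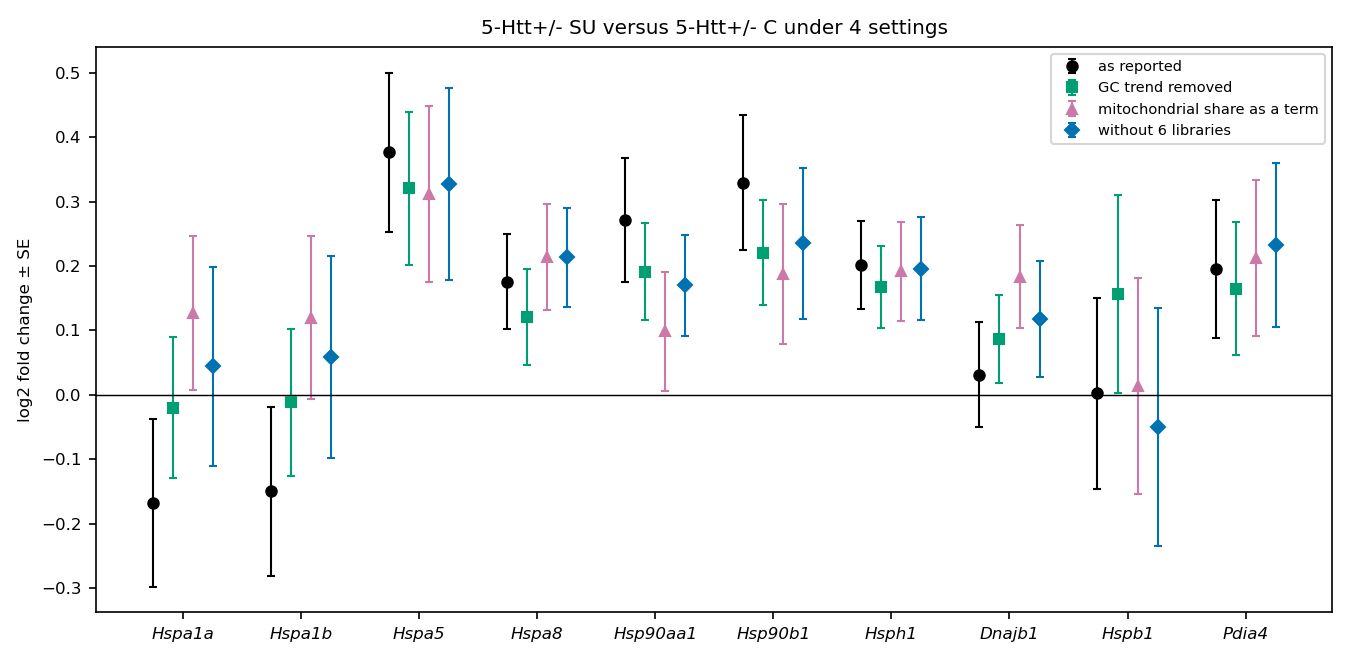
Log2 fold change of the 10 chaperone genes between 5-Htt+/- SU and 5-Htt+/- C (vertical axis, SE bars) as reported, with the GC trend of each library removed, with the mitochondrial share as a term, and without 6 libraries. Hspa5 stays between 0.31 and 0.38, Hsp90aa1 goes from 0.27 to 0.10, and Hspa1a and Hspa1b change sign.

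How the 10 genes varied together was examined over all 48 libraries, as correlations of the log2 level for 45 pairs. After adjustment over the 45 pairs, 35 had a permutation p under 0.05, all positive, and r ranged from -0.29 to 0.99. Hspa1a and Hspa1b are 1 measurement, so a relation of theirs with another gene is counted under both names. Their own pair is that of shared reads. After group means were subtracted and labels were permuted within groups, 33 pairs passed. The smallest r among the 35 pairs was 0.31, which 16.5% of all pairs of genes with a mean of at least 1 CPM reached, and 50.6% of all pairs had a positive r. This share is a description of the libraries, which all pairs have in common, and not a test.

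The ER chaperones formed the closest pair with separate reads. Hspa5 and Pdia4 had r = 0.91 and rho = 0.89, r = 0.90 without the 2 libraries farthest from the median of Hspa5 and 0.92 within groups. Hspa5 and Hsp90b1 had r = 0.78 and rho = 0.82, 0.74 without 2 libraries and 0.75 within groups. All of these had a permutation p of 1e-05 (adjusted p = 2.81e-05 for r and 3.21e-05 for rho). Pdia4 had the larger r with Hspa5, a difference that was not tested. Without the 6 libraries farthest on the first component, r with Hspa5 was 0.94 for Pdia4 and 0.89 for Hsp90b1. The count of Hsp90b1 also carries reads that could not be separated from those of 1810014B01Rik. Whether these relations go with the ER stress elements was not tested.

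In the cytosol, Hspa1a correlated with its co-chaperone Dnajb1 at r = 0.74 and rho = 0.73 (permutation, adjusted p = 2.81e-05 and 3.21e-05), 0.71 without 2 libraries and 0.77 within groups. Its r with Hspa1b was 0.99 (rho = 0.97), which is that of shared reads. With Hsph1 it was 0.36 (rho = 0.35, permutation, adjusted p = 0.0177 and 0.0214), 0.25 without 2 libraries and 0.47 within groups. Hspa1a and the ER gene Hspa5 had r = 0.31 and rho = 0.32 (permutation, adjusted p = 0.0397 and 0.0314), and the pooled r fell to 0.16 without 2 libraries. Within groups r was 0.42, and 0.41 without 2 libraries. Without the 6 libraries farthest on the first component r was 0.50 (permutation, adjusted p = 0.00106), so that the pooled r depended on which libraries were kept.

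Hspa8 correlated with Dnajb1 at r = 0.71 and rho = 0.61 (permutation, adjusted p = 2.81e-05 and 5.62e-05), 0.65 without 2 libraries and 0.74 within groups. With Hsp90aa1 it had r = 0.01 (permutation, adjusted p = 0.968) but rho = 0.31 (adjusted p = 0.0402), and r was 0.37 without 2 libraries and -0.11 within groups, so that the relation depended on few libraries. Hspb1 had r = 0.56 with Hspa1a (rho = 0.49, permutation, adjusted p = 4.5e-05 and 0.000813) and r = 0.70 with Hspa5 (rho = 0.74, adjusted p = 2.81e-05 and 3.21e-05), 0.45 and 0.72 without 2 libraries. The other 35 pairs had r between -0.29 (Hspa1a with Hsp90aa1) and 0.88 (Hspa8 with Hsph1).

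**Figure D5:**
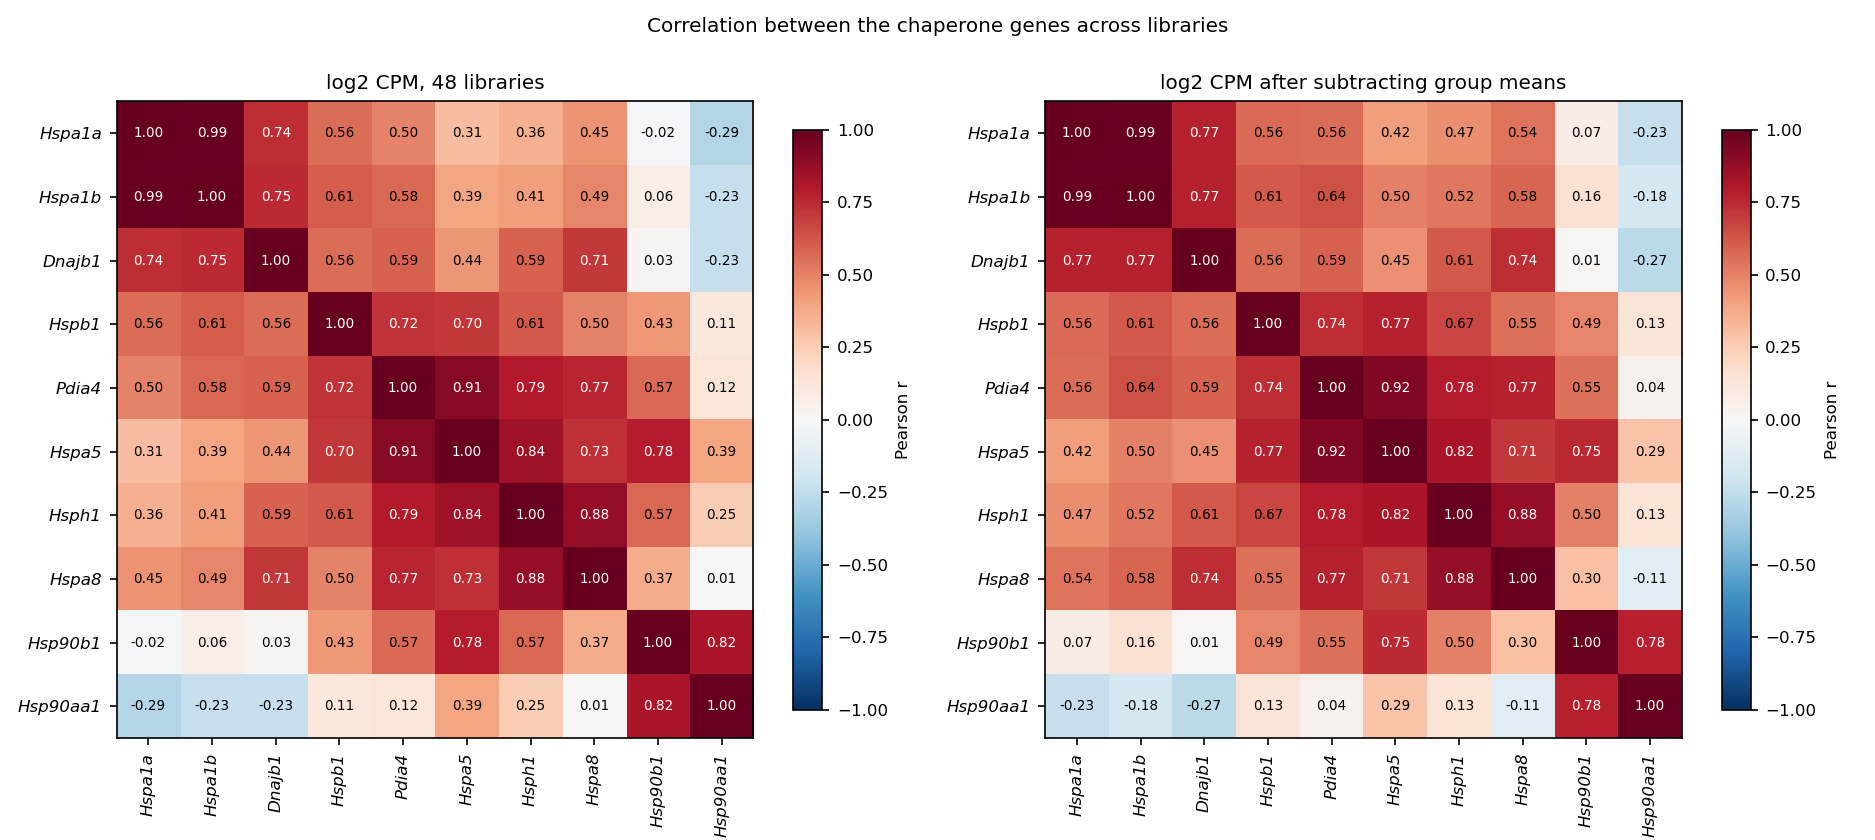
Pearson r between the log2 levels of the 10 chaperone genes over 48 libraries (left) and after subtracting group means (right); red is positive and blue negative. Hspa5, Pdia4, Hsph1 and Hspa8 form a block of 0.73 to 0.91 on the left, and Hsp90aa1 is high only with Hsp90b1 (0.82).

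For each gene, the genes whose level was most like it within groups were sought among 20018 genes with a mean of at least 1 CPM, by Pearson r over 48 libraries, leaving out the 10 genes themselves. Pairs of the 10 could be closer, such as Hspa5 with Pdia4 (r = 0.92 within groups), Hspa1a with Hspa1b (r = 0.99) and Hspb1 with Hspa5 (r = 0.77). For Hspa5 they were the ER isomerase Pdia3 (r = 0.90), the ER co-chaperone Dnajb11 (r = 0.88) and Xbp1 (r = 0.88), a transcription factor of the unfolded protein response. For Pdia4 they were Xbp1 (r = 0.89), Dnajb11 (r = 0.88) and the isomerase Pdia6 (r = 0.87). Neither Hspa5 nor Pdia4 shares its 50-base reads with another gene.

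For the 6 genes with shared reads or an overlapping gene, the first in the list was in each case the copy or the overlapping gene, which for Hspa1a was Gm20481 with 0.762 to 0.982 times its count. The closest genes were Gm20481, Gm20634 and Arvcf for Hspa1a (r = 0.96, 0.79 and 0.79), Gm20481, Gm20634 and Gm20632 for Hspa1b (r = 0.95, 0.81 and 0.78), and Gm15459, Gm26825 and Gm6210 for Hspa8 (r = 0.996, 0.98 and 0.98). For Hsp90aa1 they were Gm12346, Gm5844 and Ssh2 (r = 0.995, 0.99 and 0.99), and for Hsp90b1 1810014B01Rik, Gm15344 and Mpdz (r = 0.96, 0.92 and 0.87). Hspa8 shared 50-base reads with 13 genes and Hsp90aa1 with 4. Whether the genes listed after the first, Ssh2 among them, also hold shared reads was not tested. Hspb1 was closest to Hsp25-ps1 (r = 0.89), Dnajb11 (r = 0.74) and Hist2h3c1 (r = 0.73). Hsph1 was closest to Nmbr (r = 0.91), Gm26825 (r = 0.90) and the ER chaperone Calr (r = 0.90), and Dnajb1 to Snord14c, Saraf and Rrp7a (r = 0.80 for each).

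The other genes of the chaperone pathways were examined as lists without the 10 genes. For the nominal counts below, the shares of all genes were 6.74% higher and 8.71% lower in 5-Htt+/- SU, 5.17% higher and 6.96% lower in 5-Htt+/- SA, 1.81% higher and 1.26% lower in 5-Htt+/+ SA, and 1.59% higher and 1.78% lower in 5-Htt+/+ SU, each against its controls.  In 5-Htt+/- SU versus C, 8 of 20 ER chaperones and folding enzymes had a nominal p under 0.05 with higher levels and 0 with lower levels, and none passed adjustment. The smallest p were those of Canx, the membrane-bound lectin chaperone calnexin (0.25 ± 0.06, edgeR, adjusted p = 0.0649), and Pdia3 (0.32 ± 0.08, edgeR, adjusted p = 0.0964). The median of the list was 0.11. The controls differed too: in 5-Htt+/- C versus 5-Htt+/+ C, 0 of 20 were nominally higher and 4 lower. The median there was -0.05, and 3.69% of all genes were nominally lower. Fits with the measures of the libraries are not given for the chaperone lists. Against 5-Htt+/- C, 1 of 20 in 5-Htt+/- SA was nominally higher and 0 were lower, with Canx at 0.15 and Dnajc3 at 0.18, and the median was 0.08. In 5-Htt+/+ SA and SU, 0 of 20 had a nominal p under 0.05, with Sil1 (0.12) and Sdf2l1 (0.26) as those of smallest p in SA and Ero1l (0.07) and Sdf2l1 (0.16) in SU.

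Of the cytosolic chaperones and co-chaperones, 37 genes in 38 entries (Hspa14 has 2), 12 were nominally higher and 5 nominally lower in 5-Htt+/- SU, and none passed adjustment. They were led by the Hsp40 Dnaja1 (0.21 ± 0.05, edgeR, adjusted p = 0.0664) and the chaperonin subunit Cct8 (0.14 ± 0.03, edgeR, adjusted p = 0.0719), with a list median of 0.08. In 5-Htt+/- C versus 5-Htt+/+ C, 3 entries were nominally higher and 4 lower, beside 4.82% and 3.69% of all genes. In 5-Htt+/- SA, 3 were nominally higher and 4 lower, led by the Hsp70 Hspa2 (-0.26) and by Fkbp5 (-0.20), a co-chaperone of the glucocorticoid receptor. In 5-Htt+/+ animals the smallest p were those of Bag1 (0.15) and Bag2 (0.12) in SA and of Dnajb5 (-0.11) and Cct8 (-0.04) in SU, with 1 nominally higher entry in SA and 0 in SU.

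Of the heat shock factors and their regulators, Hsf2 was 1 of 5 genes that was nominally higher in 5-Htt+/- SU (0.20 ± 0.07, edgeR, adjusted p = 0.203), where Hsf4 had -0.13. Among these genes, 0 of 5 were nominal in 5-Htt+/- SA, with Hsf2 at 0.14 and Hsf1, the main factor of the heat shock response, at -0.06. In 5-Htt+/+ animals 0 of 5 were nominal, with Hsbp1 (-0.04) and Hsf5 (0.04) in SA and Hsbp1 (-0.11) and Hsf1 (-0.09) in SU. Of 8 mitochondrial chaperones and proteases, 2 were nominally higher and 2 lower in 5-Htt+/- SU, with the Hsp60 Hspd1 (0.21 ± 0.05, edgeR, adjusted p = 0.0867) and the protease Clpp (-0.26 ± 0.08, edgeR, adjusted p = 0.166) first. In 5-Htt+/- SA, 1 was nominally higher and 2 lower, with Lonp1 (-0.20) and Clpp (-0.23) first, and in 5-Htt+/+ animals Grpel1 (-0.10) and Trap1 (-0.06) led in SA and Trap1 (-0.09) and Clpp (-0.12) in SU, with 1 nominally lower gene in each.

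Taken as a list, the sensors, regulators and other genes of the unfolded protein response did not share the direction of Hspa5. The list mixes genes that act above Hspa5 with genes that the response itself raises, so it does not set apart the upstream ones. In 5-Htt+/- SU, 1 of 18 was nominally higher, Xbp1 (0.18 ± 0.08, edgeR, adjusted p = 0.275), and 1 lower, Atf6b (-0.17 ± 0.07, edgeR, adjusted p = 0.273), and the median was -0.0056. Of the same genes, 0 were nominally higher and 5 lower in 5-Htt+/- SA, led by Chac1 (-0.45) and Herpud1 (-0.14), with a median of -0.05. In 5-Htt+/+ animals 0 of 18 were nominal, with Atf4 (-0.11) and Ern1 (0.08) first in SA and Trib3 (-0.62) and Atf6 (0.08) in SU.

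Glucocorticoid-induced and immediate early genes were the stress-related lists set beside the chaperones. The glucocorticoid-induced list, which was chosen with earlier results of these data known, had 3 of 12 genes called lower in 5-Htt+/- SA and 2 in 5-Htt+/- SU. Sgk1, a kinase, fell by 0.62 and 0.54 on the log2 scale (edgeR, adjusted p = 0.000347 and 0.00463), Nfkbia, an inhibitor of NF-kB, by 0.48 and 0.53 (adjusted p = 0.0378 and 0.0153), and the metallothionein Mt1 by 0.57 in SA (adjusted p = 0.00403). They were called for PS versus C over both genotypes too, where the changes were -0.37 for Sgk1, -0.31 for Nfkbia and -0.28 for Mt1. The calls of Sgk1 in SA and for PS held under every alternative and without any 1 library. The 6 other calls were all lost without the 6 libraries, which leaves fewer 5-Htt+/- controls, with adjusted p of up to 0.826 (edgeR) over their alternatives. Over 15 alternatives, the call of Nfkbia in SA was lost in 9 (TMM and relative log expression scaling, the GC trend and replicate numbers as a block among them) and in SU in 6, that of Mt1 in SA in 3 and that of Sgk1 in SU in 2. Over 14 alternatives for PS, those of Mt1 and Nfkbia were lost in 5 and 4, the mitochondrial share and the oligodendrocyte score among them. Of those calls, leaving out 1 library ended that of Nfkbia in SA for 10 libraries of the 5-Htt+/- C and SA groups, that of Nfkbia in SU without 5-Htt+/- C replicate 1 or 3, that of Nfkbia for PS without 5-Htt+/- C replicate 5, and that of Mt1 for PS without 5-Htt+/- C replicate 3 or 5 or 5-Htt+/+ C replicate 2, 7 or 8. The controls these changes are measured from differed as well: in 5-Htt+/- C versus 5-Htt+/+ C, 0 of 12 genes were called, 10 were nominally higher and 1 lower, with a median of 0.29, where 4.82% of all genes were nominally higher. Of the immediate early genes, all 10 were higher in 5-Htt+/- C, 2 of them nominally, with a median of 0.32. In 5-Htt+/+ animals 0 of 12 glucocorticoid-induced genes were called, with Cdkn1a at -0.25 in SA and -0.43 in SU and Sgk1 at -0.14 and -0.17. Of 10 immediate early genes, 0 were called, 6 were nominally lower in 5-Htt+/- SA, with Egr1 (-0.42) and Fosb (-0.39) first, and 3 in 5-Htt+/- SU, with Dusp1 (-0.60) and Nr4a1 (-0.43) first. In 5-Htt+/+ animals 0 of 10 were nominal, with Dusp1 (0.24) and Arc (0.18) first in SA and Fosb (-0.27) and Egr1 (-0.23) in SU.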

How the data were processed

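Hippocampal RNA of 48 mice was sequenced. The deposited values are whole-number counts of reads per gene. The methods of the authors describe single-end reads of 50 bases, STAR on mm10, and Salmon with tximport for counts, whereas STAR, HTSeq, DESeq2 and GRCm38.p5 are listed in the processing notes of the submitters. The treatment of reads that fit several genes was not given.

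Counts were scaled by upper quartile and tested with edgeR 4.0.16 (quasi-likelihood, R 4.3.3) with 1 mean per group over all 48 libraries, in genes that reached 5 reads in 3 or more libraries, and Benjamini-Hochberg adjustment over 31208 genes. PS is the mean of SA and SU. Levels are CPM on that scale, and correlations used log2 CPM with a prior count of 2 and two-sided permutation tests (scipy 1.17.1, 100000 resamples). The code was tested on simulated data. Total counts of 16488405 to 38213754 set the counting precision, and p-values measure the spread between animals. Exon lengths, GC content (99.4% of tested genes) and shared 50-base reads came from GENCODE M21 transcripts of GRCm38, and promoters from RefSeq.

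The genes described and the lists were chosen with earlier results of these data known. Fold changes are given for genes with a nominal p under 0.05, or else for the largest change of a comparison, and for each list the called genes and the 2 of smallest p in each comparison with controls. Hspa1a, Hspa1b, the relations with library measures, and genes with nominal p between 0.05 and 0.1 in the text were added after the values were seen. The alternatives were other tests (DESeq2 1.42.0 among them), scalings, filters and terms, leaving out 6 libraries, and leaving out each library in turn.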

Additional observations from a re-analysis of the deposited data

Results flagged for a closer look

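In 60 sets of values (10 genes in 6 groups), 1 library stood apart from the rest of its group in 7, where about 5% of groups are expected to show this by chance. Because Hspa1a and Hspa1b share their reads, 2 of the 7 are 1 measurement. The 60 sets also come from the same 48 libraries, and many of the genes are correlated. The 7 are therefore not independent and cannot be weighed against that 5%.

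The 5-Htt+/- SU library of replicate 5 had the highest Hspa1a of its group, 41.5 CPM against 29.8 CPM for the next, the highest Hspa1b, 42.7 CPM against 31.2 CPM, and the highest Hspb1, 6.19 CPM against 4.55 CPM. Without this library, the log2 fold change of Hspa1a in 5-Htt+/- SU versus C was -0.27. The 5-Htt+/+ C library of replicate 7 had the highest Hspa8 of its group, 2234 CPM against 1879 CPM, and the lowest Hsp90aa1, 555 CPM against 857 CPM. Its GC slope was 0.2996 log2 units per 10 percentage points, and without it the difference of Hsp90aa1 between 5-Htt+/- C and 5-Htt+/+ C was -0.28. The 5-Htt+/- SU library of replicate 8 had the lowest Hsp90aa1, 728 CPM against 924 CPM. Both of these libraries are among the 6 farthest on the first component. The 5-Htt+/- SA library of replicate 1 had the lowest Dnajb1, 30.5 CPM against 35.4 CPM.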

How the results depend on the processing

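No chaperone gene was called in any of the 12 comparisons under any of the alternatives tried, nor when each of the 48 libraries was left out (0 called throughout), and the smallest adjusted p reached was 0.0683, for Hsp90b1 in 5-Htt+/- SU versus C without 5-Htt+/- C replicate 4. The sign of the reported fold changes was kept except for Hspa1a and Hspa1b. Without the 6 libraries farthest on the first component, Hspa1a and Hspa1b had 0.0021 and 0.029 in 5-Htt+/- SA versus C and 0.045 and 0.059 in 5-Htt+/- SU versus C. With the mitochondrial share as a term they had 0.13 and 0.12 in 5-Htt+/- SU. Across libraries, r of Hspa8 with Hsp90aa1 turned to -0.11 after group means were subtracted and passed adjustment without the 6 libraries (r = 0.50), r of Hspa1a with Hspa5 was no longer past adjustment with TMM scaling (r = 0.29), and the number of pairs past adjustment was 33 to 40. Leaving out 1 library moved the change of Hspa5 in 5-Htt+/- SU between 0.33 and 0.43 and that of Hspa8 between 0.13 and 0.22, where its nominal p was over 0.05 without 3 libraries (5-Htt+/- C replicates 4 and 5, 5-Htt+/- SU replicate 8).

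Counts over all genes depended on the setting: in 5-Htt+/- SU versus C 5 genes were called, against 0 without the 6 libraries, 88 with the likelihood ratio test, 240 with DESeq2, and 2 to 434 with 1 library left out (434 without 5-Htt+/- C replicate 4, 94 without 5-Htt+/- C replicate 2). For the comparisons below, the count as reported is followed by the range over all alternatives and left-out libraries. It was 9 (2 to 25) in 5-Htt+/- SA versus C, 4 (0 to 7) in 5-Htt+/+ SA versus C, 6 (0 to 7) in 5-Htt+/+ SU versus C, 5 (2 to 8) between controls, 12 (2 to 27) for PS versus C, 19 (11 to 42) among the 6 groups, and 0 (0 to 3) in the remaining comparisons except that between PS groups (6, 5 to 8). The cause was not tested. Replicate numbers did not pair the animals: over 115 pairs of libraries with the same number, the median correlation of deviations was -0.0044 and 29 exceeded 0.1. With the replicate block, the changes in 5-Htt+/- SU versus C were 0.33 for Hspa5, 0.33 for Hsp90b1 and 0.28 for Hsp90aa1, no chaperone gene was called (0 in each comparison), and 2 genes of all were called. With the GC trend removed and the block, they were 0.28, 0.21 and 0.20. Hspb1, with 46 to 148 reads per library, was measured least precisely.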
